A study of Homo sapiens with 24 samples.

Results

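The siRNA pool against SREBF1 (siSREBF1) was set against the 2 antisense oligonucleotides (ASOs) against the same gene, ASO-SREBF1-S1 and ASO-SREBF1-S4, in cultures of HT-144, a human melanoma line established from a metastasis. Of 24 deposited lane files, 12 belong to these groups, 4 lanes each, and summing the lanes gave 3 libraries, 1 per group. Polyadenylated RNA was sequenced 3 days after transfection with Lipofectamine RNAiMAX in medium with insulin, transferrin and selenium. The labels give 50 nM for siSREBF1 and for its negative control, a scrambled siRNA (siNegative), and 5 nM for both SREBF1 ASOs and for the negative control ASO (ASO-Neg). For the mock transfection (Mock) the labels name no oligonucleotide. Reagent type and dose therefore changed together, and their parts in any difference below cannot be told apart.

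SREBF1 encodes SREBP-1, a transcription factor held in the membrane of the endoplasmic reticulum and released by cleavage when lipids run low. It is best known for switching on genes of fatty acid synthesis, while the related factor SREBP-2 (SREBF2) mainly serves cholesterol synthesis. An siRNA is a short RNA duplex that guides the Argonaute complex to matching transcripts, whereas an ASO is a single strand that pairs with its transcript and, in many designs, recruits RNase H to cut it.

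Gene counts per library ran from 12916478 (Mock) to 47900277 (ASO-SREBF1-S1), with 13206869 in siSREBF1 and 15901894 in ASO-SREBF1-S4. Levels are CPM, read counts scaled to library size with TMM factors, and they are compared only within a gene. The melanocyte genes MITF, SOX10, PMEL, MLANA and TYR were all detected, with summed levels (CPM without TMM factors, as for the other marker sums) of 3212 CPM in siSREBF1, 4290 with ASO-SREBF1-S1 and 3305 with ASO-SREBF1-S4. Keratinocyte, immune and endothelial marker lists summed to at most 30.25, 3.08 and 57.7 CPM in any library, and 2 of 9, 2 of 7 and 1 of 6 of their genes had no count in any library. Endothelial signal came mainly from KDR (35.4 to 56.0 CPM), while CLDN5 was at 0 in all 6. Fibroblast markers summed to 799 CPM in siSREBF1, 680 with ASO-SREBF1-S1 and 1001 with ASO-SREBF1-S4, most of it COL1A2. Over the libraries COL1A2 ran from 562 to 894.4 CPM, LUM from 51.7 to 83.5 and FAP from 32.7 to 40.9. In contrast, COL1A1 ran from 0.54 to 1.59 CPM, THY1 from 0.05 to 0.23 and POSTN from 0 to 0.30. The part of these marker genes in the results was not tested. In such bulk libraries, fewer cells of a type and less RNA per cell cannot be told apart.

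All 3 reagents left less SREBF1 than their own negative control. SREBF1 (GRCh38 chr17:17810399-17837002, minus strand) stood at 54.9 CPM in siSREBF1, 77.1 with ASO-SREBF1-S1 and 70.3 with ASO-SREBF1-S4, while siNegative was at 249.7, ASO-Neg at 217.6 and Mock at 231.7. The siRNA pool thus left 22.0% of the siNegative level, and the ASOs left 35.4% and 32.3% of the ASO-Neg level. The targeting libraries did not overlap with the controls, and siSREBF1 was the lowest of the 6. Against the ASO pair, SREBF1 in siSREBF1 differed by -0.43 on the log2 scale (SE 0.12, 95% interval -0.71 to -0.15), which did not pass over all genes (edgeR adjusted p = 0.32). That adjusted p belongs to the fit with all 6 libraries only. The difference was -0.49 without ASO-SREBF1-S4 and -0.36 without ASO-SREBF1-S1, fits with a single library on each side. SREBF2 was nearly level, at 503 CPM in siSREBF1, 509.6 with ASO-SREBF1-S1 and 508 with ASO-SREBF1-S4 (log2 difference -0.02, interval -0.25 to 0.22).

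Few genes separated the siRNA pool from the ASO pair. With edgeR's quasi-likelihood test, 24 of 16297 genes tested passed an adjusted p of 0.05, 9 higher in siSREBF1 (0.0552% of genes tested) and 15 lower (0.092%), 0.147% in all. Before adjustment, 1420 genes (8.71%) had a p below 0.05. The test takes its spread from the 3 controls and the 2 ASOs, since siSREBF1 is 1 library assumed to vary like the others. The p-values therefore measure the spread between libraries that received different reagents, and no label says that they came from separate cultures. The count fell to 2 without Mock, 3 without siNegative and 2 without ASO-Neg, and rose to 395 without ASO-SREBF1-S1 and 890 without ASO-SREBF1-S4. SCG2 and ATP6V1D passed in all 5 of those fits, joined by CDH13 without siNegative.

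A size rule without a test was applied as well, and its genes overlapped only in part with those past the test. It took genes at least 2-fold (1 on the log2 scale) away from each ASO library in the same direction, with 10 CPM in siSREBF1 or in both ASO libraries. Of 9761 genes with that level, 21 met it (0.215%), 12 above both ASO libraries (0.123%) and 9 below both (0.0922%). All 21 also lay outside the 3 control libraries. They were chosen for lying outside both ASO libraries, and the share of all genes outside every other library is not given here. Between single libraries, 121 of 9845 genes (1.23%) were 2-fold apart between siSREBF1 and ASO-SREBF1-S1, 60 of 9886 (0.607%) between siSREBF1 and ASO-SREBF1-S4, and 107 of 9872 (1.08%) between the 2 ASO libraries. These comparisons share libraries, so they are not independent. By this count, which has no test, ASO-SREBF1-S4 was nearer to siSREBF1 than to the other ASO. Both rules together named 35 genes, and 10 met both: SCG2, CSMD2, CDH13, EDN3, HAS3, ATP6V1D, MTPN, ANTXR1, LEPROTL1 and HLA-DMA.

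**Figure D1:**
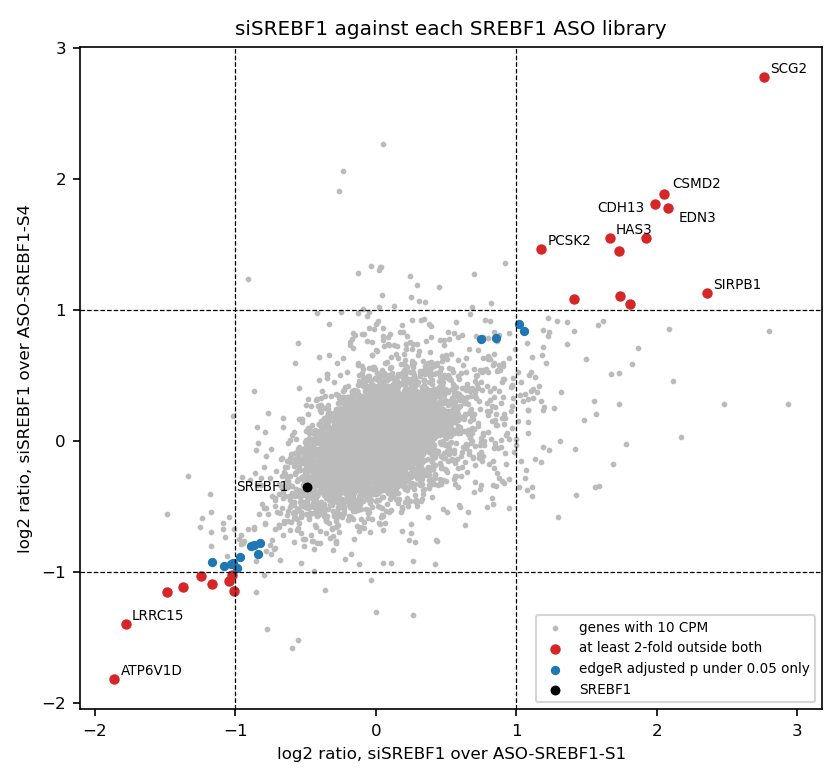
Each point is a gene with at least 10 CPM, placed by the log2 ratio of siSREBF1 to ASO-SREBF1-S1 (x axis) and to ASO-SREBF1-S4 (y axis), and dashed lines mark 2-fold. The 21 red genes lie beyond both lines, SCG2 farthest out at 2.76 and 2.78 and ATP6V1D lowest at -1.86 and -1.82, while SREBF1 (black) lies inside them.

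SCG2, which encodes secretogranin II, a granin stored in the dense-core vesicles of secretory cells, had the largest difference above the ASO pair among the 24 genes. Its level was 45.95 CPM in siSREBF1 (617 counts), 6.68 with ASO-SREBF1-S1 (322 counts) and 6.63 with ASO-SREBF1-S4 (108 counts), and the controls were at 8.94 (Mock), 9.62 (siNegative) and 9.78 (ASO-Neg). The siRNA library stood far above all 5 others, and both ASO libraries stood below all 3 controls. The fold was 6.79 over ASO-SREBF1-S1 and 6.84 over ASO-SREBF1-S4. In the fit, SCG2 was higher by 2.79 on the log2 scale (SE 0.13, 95% interval 2.48 to 3.09, edgeR adjusted p = 0.00020). Set against its own control, it was 2.25 above siNegative with the siRNA pool (95% counting interval 2.01 to 2.48) and -0.54 and -0.55 from ASO-Neg with the ASOs. The gene lies at chr2:223596940-223602361 on the minus strand.

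EDN3 showed the same arrangement at a lower level. It encodes endothelin-3, a peptide ligand of the EDNRB receptor needed for melanocyte development. EDN3 (chr20:59300443-59325992, plus strand) stood at 14.97 CPM in siSREBF1, 3.47 with ASO-SREBF1-S1 and 4.30 with ASO-SREBF1-S4, with controls of 5.10 (Mock), 7.44 (siNegative) and 6.36 (ASO-Neg). Again siSREBF1 was the highest library and the ASOs the lowest pair. The difference from the ASO pair was 1.97 on the log2 scale (SE 0.24, interval 1.42 to 2.52, edgeR adjusted p = 0.029), and it no longer passed without Mock (adjusted p = 0.12), siNegative (0.082) or ASO-Neg (0.16). The own-control log2 ratios of EDN3 were 1.00 with siSREBF1, -0.86 with ASO-SREBF1-S1 and -0.56 with ASO-SREBF1-S4.

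HAS3, a hyaluronan synthase of the plasma membrane, stood apart on the siRNA side. Its level was 34.5 CPM in siSREBF1 against 10.8 and 11.7 in the ASO libraries and 9.25, 12.6 and 11.7 in Mock, siNegative and ASO-Neg. The 5 other libraries lay between 9.25 and 12.6 CPM. HAS3 (chr16:69105653-69118719, plus strand) was higher in siSREBF1 than in the ASO pair by 1.62 on the log2 scale (SE 0.18, interval 1.22 to 2.02, edgeR adjusted p = 0.023). Leaving out Mock, siNegative or ASO-Neg gave edgeR adjusted p-values of 0.060, 0.082 and 0.14. It was 1.45 above siNegative with the siRNA pool and -0.12 and 0.00 from ASO-Neg with ASO-SREBF1-S1 and ASO-SREBF1-S4.

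CDH13 and CSMD2 parted on the ASO side. CDH13 encodes T-cadherin, a cadherin anchored to the membrane by a lipid tail, and stood at 61.45 CPM in siSREBF1, 15.4 with ASO-SREBF1-S1 and 17.5 with ASO-SREBF1-S4, with 56.0 in siNegative, 38.6 in ASO-Neg and 42.1 in Mock. The siRNA library sat close to its own control (log2 0.13), while the ASOs had log2 ratios of -1.32 and -1.14 to theirs. CSMD2, a large membrane protein with CUB and sushi domains, was at 15.2 CPM in siSREBF1 and at 3.59 and 4.05 in the ASO libraries. Its controls were at 12.05 in siNegative, 8.66 in ASO-Neg and 7.53 in Mock. CDH13 was higher in siSREBF1 than in the ASO pair by 1.91 on the log2 scale (SE 0.20, edgeR adjusted p = 0.021), and CSMD2 by 2.01 (SE 0.27, edgeR adjusted p = 0.040). In both genes the 2 negative controls also differed, by 0.54 and 0.47, with siNegative above ASO-Neg.

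ATP6V1D encodes subunit D of the central stalk of the proton pump that acidifies lysosomes and vesicles. Among the 24 genes past the test, it had the largest difference below the ASO pair. It stood at 21.2 CPM in siSREBF1 (285 counts), 77.35 with ASO-SREBF1-S1 (3726 counts) and 75.2 with ASO-SREBF1-S4 (1224 counts), with controls of 66.5 (Mock), 66.4 (siNegative) and 71.65 (ASO-Neg). The siRNA library was alone at the bottom, and both ASO libraries lay above the 3 controls. In the fit, ATP6V1D (chr14:67294371-67360265, minus strand) was lower, with a log2 difference of -1.85 (SE 0.12, interval -2.11 to -1.58, edgeR adjusted p = 0.00091). The siRNA pool left 31.95% of the siNegative level, and the ASO libraries held 107.9% and 104.9% of ASO-Neg.

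The other genes at least 2-fold above both ASO libraries did not pass the test. ALK, a receptor tyrosine kinase, was at 22.6 CPM in siSREBF1, 5.88 with ASO-SREBF1-S1 and 7.68 with ASO-SREBF1-S4 (edgeR adjusted p = 0.054). BDKRB2, a bradykinin receptor, was at 19.1, 5.69 and 6.94 CPM in that order, and PCSK2, a protease that processes prohormones in granules, at 20.9, 9.20 and 7.56 CPM. The controls of PCSK2 ran from 8.91 to 12.3 CPM, so siSREBF1 lay above and ASO-SREBF1-S4 below them. SIRPB1, a receptor of the signal regulatory family, was at 15.5 CPM in siSREBF1, 2.95 with ASO-SREBF1-S1 and 7.06 with ASO-SREBF1-S4, so the ASOs lay on both sides of ASO-Neg (4.13). COLEC12, VAV3 and HKDC1 had log2 ratios to the nearer ASO library of 1.104, 1.08 and 1.04. BDKRB2 and SIRPB1 share exons on the same strand with an unnamed gene, so their counts are uncertain.

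ANTXR1 and MTPN lay below both ASO libraries and passed the test. ANTXR1, a collagen-binding membrane protein also used by anthrax toxin, was at 74.55 CPM in siSREBF1, 176.7 and 152.8 in the ASO libraries and 164 to 168.6 in the controls. MTPN encodes myotrophin, a small ankyrin-repeat protein acting on actin capping, and was at 203.5 CPM in siSREBF1 against 419.7 and 428.2 in the ASO libraries and 393.4 to 420.9 in the controls. In both, the 5 other libraries clustered and siSREBF1 lay apart. Against the ASO pair, ANTXR1 differed by -1.15 (SE 0.12) and MTPN by -1.06 (SE 0.11), each with an edgeR adjusted p of 0.021.

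HLA-DMA, a chaperone that loads peptides onto MHC class II, was at 115.2 CPM in siSREBF1, 231.7 and 255.2 in the ASO libraries and 178 to 219.9 in the controls (log2 difference -1.08, edgeR adjusted p = 0.040). LEPROTL1, a membrane trafficking protein, was at 21.4 CPM against 43.6 and 43.55 (log2 difference -1.03, edgeR adjusted p = 0.026). HLA-DMA and LEPROTL1 each share exon sequence on the same strand with another gene, LEPROTL1 with DCTN6. PHLPP2, a phosphatase acting on AKT, was at 7.52 CPM against 16.96 and 16.15, and CCN2, a secreted YAP target also called CTGF, at 11.0 against 28.7 and 24.0 (both edgeR adjusted p = 0.055). ASO-Neg held 17.03 CPM of CCN2, between siSREBF1 and the ASOs. RGS16, which speeds the shutdown of G proteins, was at 4.47 CPM against 12.7 and 10.1.

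LRRC15, a leucine-rich repeat membrane protein, was the one gene of the 21 whose negative controls themselves stood apart by more than 2-fold, as 9 of 9778 genes did (0.092%). It was at 4.69 CPM in siSREBF1, 16.3 with ASO-SREBF1-S1 and 12.5 with ASO-SREBF1-S4, but also at 7.60 in siNegative and 6.43 in Mock against 19.2 in ASO-Neg. Every library that received an ASO lay above every library that did not. The log2 ratio of siNegative to ASO-Neg was -1.33, and the difference from the ASO pair did not pass (edgeR adjusted p = 0.48). Just inside the 2-fold limit lay HKDC1 (1.04) and HLA-DMA (-1.01), and just outside it KCNQ3 (0.93) and MEF2C (-0.97).

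**Figure D2:**
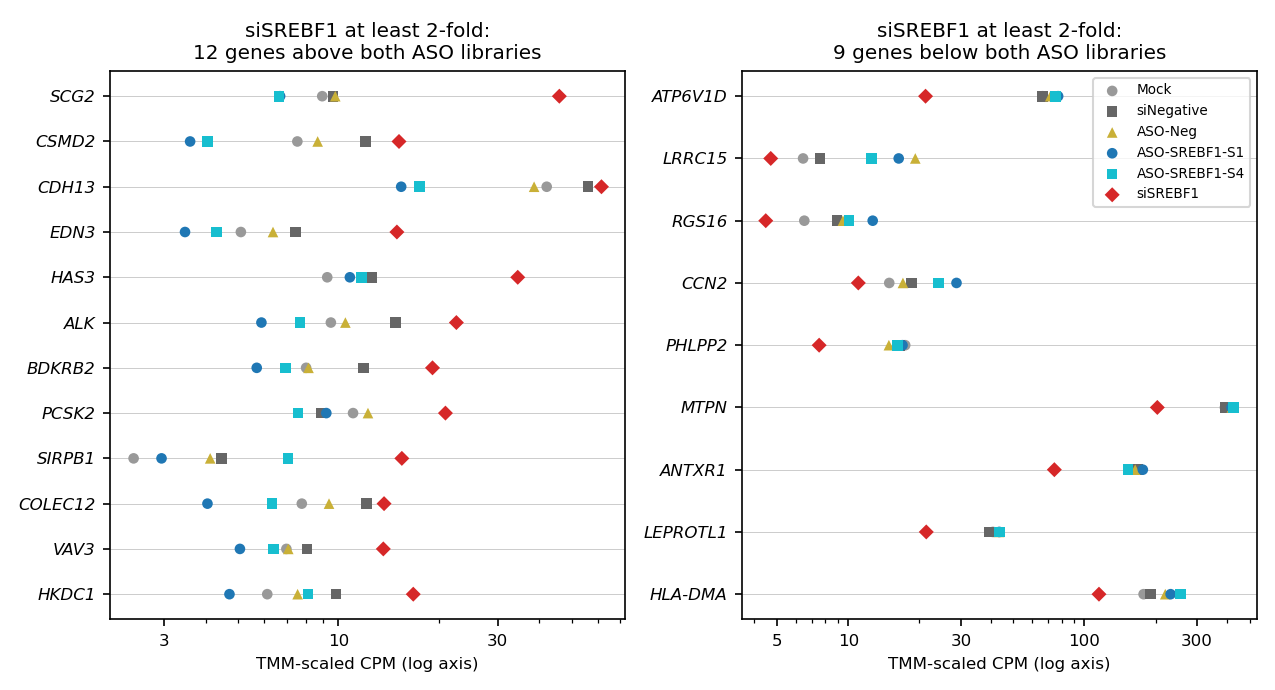
TMM-scaled CPM (log axis) in each of the 6 libraries for the 12 genes at least 2-fold above (left) and the 9 at least 2-fold below (right) both ASO libraries, 1 marker per library and no error bar, since each group is 1 library. The red diamonds of siSREBF1 lie outside all other markers in every row, alone for HAS3 and ATP6V1D, close to siNegative for CDH13 (61.45 and 56.0 CPM) and CSMD2 (15.2 and 12.05 CPM).

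The remaining 14 genes past the test differed by less than 2-fold from at least 1 ASO library. Of these, 4 were higher in siSREBF1. NRP1, neuropilin-1, a co-receptor for VEGF and semaphorins, was at 176.7 CPM in siSREBF1, 87.25 and 95.5 in the ASO libraries and 70.5 to 87.45 in the controls (log2 difference 0.95, SE 0.13, edgeR adjusted p = 0.040). ABHD17C, a depalmitoylating enzyme, was at 148.6 CPM against 81.97 and 86.3 (0.82, edgeR adjusted p = 0.024). The other pair was the pseudogene RPL23AP82 (35.5 against 17.1 and 19.8 CPM), whose reads cannot be separated firmly from its near copies, and ENSG00000112096 (152.2 against 90.55 and 88.8 CPM), an identifier that matched no symbol here.

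Another 10 were lower in siSREBF1. PACSIN2, which bends membranes through its F-BAR domain, was at 142.9 CPM in siSREBF1 against 255 and 260.2 in the ASO libraries (log2 difference -0.85, edgeR adjusted p = 0.045), and shares exon sequence with ARFGAP3. TTC7B, part of the complex that makes phosphatidylinositol 4-phosphate at the plasma membrane, was at 17.1 CPM against 34.9 and 32.8. ZDHHC5, a palmitoyltransferase, was at 66.6 CPM against 140.6 and 129.1, and VTA1, a cofactor of the ESCRT disassembly enzyme VPS4, at 37.4 against 68.2 and 65.2. In each of these siSREBF1 also lay below all 3 controls.

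NCR3LG1, the B7-H6 ligand of the natural killer receptor NKp30, was at 38.8 CPM in siSREBF1, 87.1 with ASO-SREBF1-S1 and 73.95 with ASO-SREBF1-S4 (log2 difference -1.06, edgeR adjusted p = 0.047). MEF2C, a transcription factor of muscle and neural crest lineages, was at 24.6 CPM against 48.9 and 48.2 (-0.98, edgeR adjusted p = 0.029). FBH1, a DNA helicase, was at 38.2 against 77.2 and 73.2 CPM, and UHMK1, a kinase, at 141.4 against 276.2 and 261.9 CPM. MARCHF7, a ubiquitin ligase, and TMEM123 completed the set, with log2 differences of -0.85 and -0.80.

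Each gene was then set against its own negative control. At least 2-fold with 10 CPM in 1 of the libraries, 50 of 9862 genes (0.507%) were apart for siSREBF1 and siNegative, 47 of 9768 (0.481%) for ASO-SREBF1-S1 and ASO-Neg, and 69 of 9855 (0.7%) for ASO-SREBF1-S4 and ASO-Neg. Of the 24 genes past the test, 22 lay at least 0.5 (log2) from siNegative in the direction of the difference, and in 20 both ASO libraries lay within 0.5 of ASO-Neg. Over all genes tested, 13.1% met the first condition, 76.2% the second and 6.02% both. The 24 genes were chosen in a fit that uses these same libraries, so their counts partly restate that choice. All 14 genes that passed without the 2-fold rule met both conditions, with sizes of 0.68 to 1.28 against siNegative and ASO ratios between -0.32 and 0.18. Of the 21 genes of the size rule, 4 met a stricter siRNA class (at least 1 from siNegative, both ASOs within 0.5 of ASO-Neg): HAS3, ATP6V1D, ANTXR1 and PHLPP2. The reverse ASO class held CDH13 and CSMD2, and SCG2 and EDN3 lay at least 0.5 from both controls, in opposite directions. LRRC15 made up the control class, and 12 genes met none of these. With limits of 0.8 and 0.4 in place of 1 and 0.5, the first 3 classes together held 13 genes instead of 8.

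Of the 12 above both ASO libraries, 12 had siSREBF1 above siNegative, 10 had siNegative above ASO-Neg and 9 had both ASO libraries below ASO-Neg. Of the 9 below, 9 had siSREBF1 below siNegative and 6 had both ASO libraries above ASO-Neg. These counts describe genes chosen by the same libraries, so they partly restate that choice. Their shares over all genes are not given here. A direct test of the difference of differences, the siRNA effect minus the mean ASO effect, had 1 residual degree of freedom and passed for 0 of 16242 genes with edgeR (0%), with 217 genes at an unadjusted p under 0.05 (1.34%). DESeq2 called 1 gene, SCG2, and limma-voom 0. For SCG2 that difference was 2.82 (SE 0.30) and for ATP6V1D -1.73 (SE 0.23), both with an edgeR adjusted p of 1.00.

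**Figure D3:**
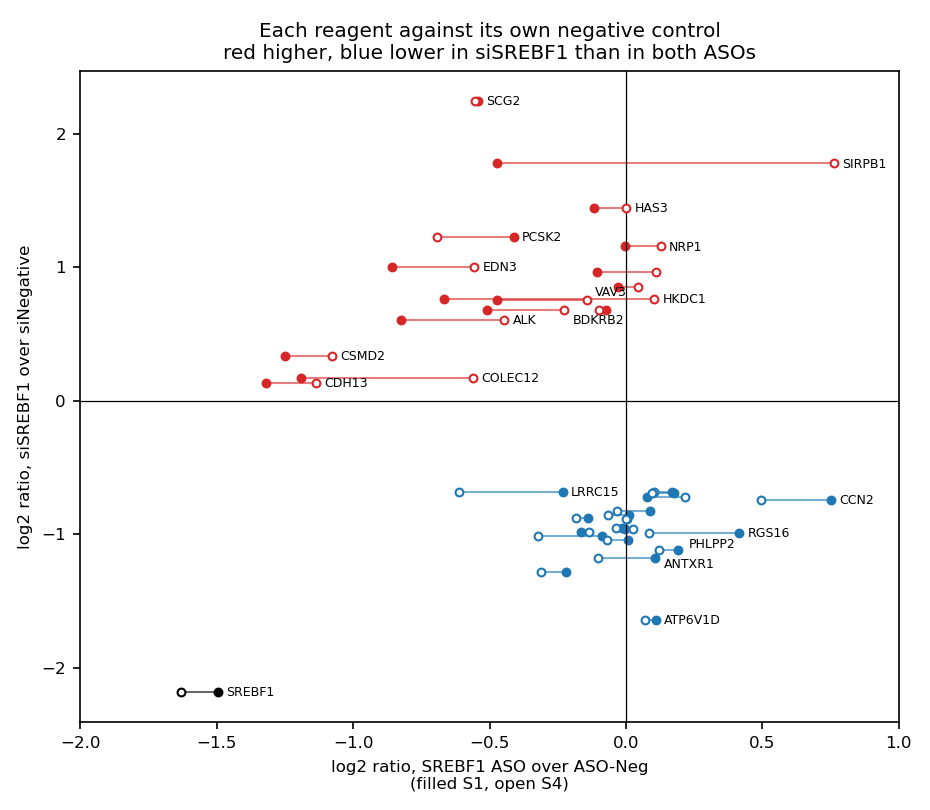
Log2 ratio of siSREBF1 to siNegative (y axis) against the log2 ratio of each SREBF1 ASO to ASO-Neg (x axis, filled S1, open S4, joined by a line) for the 35 genes of either rule and SREBF1. SCG2 sits at 2.25 with both ASOs near -0.55, CDH13 and CSMD2 sit far left near 0 on the y axis, most blue genes sit near 0 on the x axis, and SREBF1 is low on both axes.

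Promoter sequence is shown for example genes whose window of 250 bases before the RefSeq start overlaps no annotated exon. These are HAS3 and ANTXR1 (siRNA side, higher and lower), CSMD2 (ASO side) and LRRC15 (controls apart). SCG2 and EDN3, the genes with opposite directions, had no promoter sequence in the source used. Sequences are from RefSeq on GRCh38.p14, read 5′ to 3′ on the gene's strand. Capitals mark a match to 1 of 5 motifs searched on both strands: CRE (TGACGTCA), AP-1 (TGANTCA), NF-kB (GGGANTTCC), SRE (TCACNCCAC) and E-box (CACGTG). The HAS3 window lies inside the gene's annotated span, in an intron, and the other 3 lie upstream of their genes.
HAS3, chr16:69107290-69107539, plus strand: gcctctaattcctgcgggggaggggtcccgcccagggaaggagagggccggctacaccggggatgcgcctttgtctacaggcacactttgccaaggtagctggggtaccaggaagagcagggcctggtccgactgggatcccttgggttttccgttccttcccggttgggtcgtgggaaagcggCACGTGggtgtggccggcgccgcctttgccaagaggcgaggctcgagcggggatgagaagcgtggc
ANTXR1, chr2:69012894-69013143, plus strand: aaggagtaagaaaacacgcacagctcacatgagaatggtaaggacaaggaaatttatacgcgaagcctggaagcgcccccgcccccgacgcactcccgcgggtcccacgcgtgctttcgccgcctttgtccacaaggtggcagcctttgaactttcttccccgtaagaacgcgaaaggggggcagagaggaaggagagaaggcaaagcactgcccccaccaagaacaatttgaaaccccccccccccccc
CSMD2, chr1:34165843-34166092, minus strand: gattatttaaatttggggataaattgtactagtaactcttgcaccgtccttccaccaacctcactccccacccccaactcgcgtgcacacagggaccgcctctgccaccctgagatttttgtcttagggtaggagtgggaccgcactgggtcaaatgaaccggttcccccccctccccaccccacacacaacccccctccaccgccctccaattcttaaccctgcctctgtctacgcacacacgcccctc
LRRC15, chr3:194369744-194369993, minus strand: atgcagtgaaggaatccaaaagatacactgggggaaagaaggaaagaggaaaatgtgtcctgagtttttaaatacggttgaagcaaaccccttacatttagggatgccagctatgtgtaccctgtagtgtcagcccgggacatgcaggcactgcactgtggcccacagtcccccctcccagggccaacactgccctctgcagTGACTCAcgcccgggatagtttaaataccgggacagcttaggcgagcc

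The HAS3 window holds 1 E-box, beginning 66 bases before the start, and the LRRC15 window 1 AP-1 match beginning 48 bases before it. An E-box occurs in 8.78% and an AP-1 match in 4.17% of the 11599 tested genes' windows, a CRE in 2.85%, an NF-kB match in 2.14% and an SRE in 0.819%. Of 37 genes looked up, 29 were in the table. Among the 8 windows of genes 2-fold above both ASO libraries, 1 held an E-box and 1 an AP-1 match, and among the 8 below, 1 held an AP-1 match. No motif was shared by more than 1 gene of either set. A match is a description of the letters, not evidence that a factor binds.

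In the target's own pathway no gene passed edgeR's test between the siRNA pool and the ASO pair. Of 29 fatty acid synthesis genes tested, 0 passed with edgeR, DESeq2 or limma-voom, 3 had an unadjusted edgeR p under 0.05 and 0 were 2-fold outside both ASO libraries. Of these, 7 lay above and 14 below both by any amount, and the median log2 difference was -0.05. Over all genes tested, 31.9% lay above, 32.6% below and 35.5% between, with a median of -0.0037. SCD, which puts the first double bond into saturated fatty acids, was at 1953 CPM in siSREBF1, 2345 with ASO-SREBF1-S1 and 2316 with ASO-SREBF1-S4, with 3920 to 4288 in the controls. All 3 targeting libraries lay well below the controls, and siSREBF1 was the lowest (log2 difference -0.25, interval -0.54 to 0.03, edgeR adjusted p = 0.62).

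INSIG1, which retains SREBP in the endoplasmic reticulum, was at 298.2 CPM in siSREBF1, 381.3 and 398 in the ASO libraries and 532.3 to 591.5 in the controls (-0.39, interval -0.64 to -0.13, edgeR adjusted p = 0.34). FADS2, a desaturase of polyunsaturated fatty acids, was at 17.7 CPM against 22.9 and 22.7, and LPIN1, a phosphatidate phosphatase, at 192.7 against 214.4 and 209.1. In these genes siSREBF1 was the lowest library, but ELOVL2, a fatty acid elongase, was highest there (17.7 CPM against 13.35 and 14.5), and none of these differences passed edgeR's test. Against their own controls, the median log2 ratio of fatty acid genes was -0.24 with siSREBF1, -0.27 with ASO-SREBF1-S1 and -0.25 with ASO-SREBF1-S4. Of 22 cholesterol synthesis genes 0 passed with edgeR (4 at an unadjusted p under 0.05) or limma-voom and 1, IDI1, with DESeq2, and 8 lay above and 8 below both ASO libraries. IDI1, an isoprenoid isomerase, was at 248.6 CPM in siSREBF1 against 354.4 and 343.4 in the ASO libraries and 346.5 to 354.9 in the controls, a log2 difference of -0.49 (edgeR adjusted p = 0.15).

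**Figure D4:**
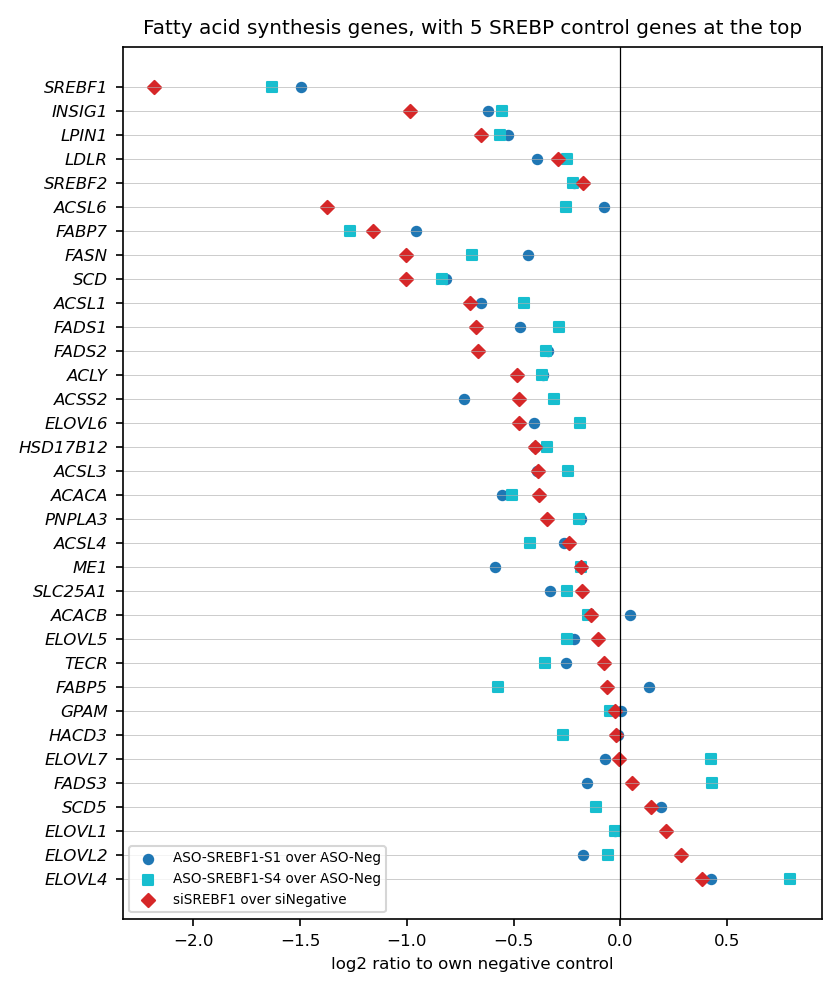
Log2 ratio of each SREBF1 reagent to its own negative control (x axis) for 29 fatty acid synthesis genes and, at the top, 5 genes of SREBP control, 1 marker per library and no error bar. The 3 markers lie close together in most rows, with siSREBF1 lowest for SREBF1, INSIG1 and SCD and the median of the fatty acid genes between -0.27 and -0.24 for all 3 reagents.

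Around the 4 marker genes, no other gene of the same system passed edgeR's test. Of 23 genes of secretory granules and prohormone processing, only SCG2 passed with edgeR and limma-voom, SCG2 and PCSK2 with DESeq2, and 5 had an unadjusted edgeR p under 0.05. In this list 12 lay above and 4 below both ASO libraries, and the median log2 difference was 0.15. Over all genes tested, 31.9% lay above both, 32.6% below both and 8.71% had an unadjusted edgeR p under 0.05. PCSK2 was the other member past 2-fold (edgeR adjusted p = 0.062), and CADPS, a priming factor for dense-core vesicles, was at 11.1 CPM in siSREBF1 against 4.48 and 5.84 (edgeR adjusted p = 0.22). Of 27 genes of the proton pump, only ATP6V1D passed, with all 3 tools, and 3 lay above and 16 below both ASO libraries, with a median of -0.08. ATP6AP2, an accessory subunit, was at 111.2 CPM against 136.7 and 150.1 in the ASO libraries. Among 30 lysosomal genes 0 passed (4 at an unadjusted p under 0.05, NEU1 with DESeq2, 0 with limma-voom), and 7 lay above and 11 below.

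Of 5 endothelin genes tested only EDN3 passed, with all 3 tools, and its receptor EDNRB was at 199.5 CPM in siSREBF1, 164 and 187.3 in the ASO libraries and 199.4 to 207.7 in the controls. Of 17 genes of hyaluronan synthesis and turnover only HAS3 passed with edgeR and limma-voom, and CEMIP and HAS3 passed with DESeq2. CEMIP, which takes part in hyaluronan breakdown, was at 370.5 CPM in siSREBF1, 158.5 and 213.1 in the ASO libraries and 168.5 to 234.5 in the controls, with a log2 difference of 1.00 (edgeR adjusted p = 0.16). Of 22 cadherin and immunoglobulin adhesion genes, CDH13 and CSMD2 passed with edgeR, MCAM as well with limma-voom, and MCAM and NCAM1 as well with DESeq2, while 11 had an unadjusted edgeR p under 0.05. Of the 22, 12 lay above and 4 below, with a median of 0.28. The shares over all genes tested were 31.9% above, 32.6% below and 8.71% with an unadjusted edgeR p under 0.05. Of 23 antigen presentation genes, only HLA-DMA passed, with all 3 tools, and 2 lay above and 10 below. B2M, the light chain of MHC class I, was at 840.4 CPM in siSREBF1 against 1054 and 1158 in the ASO libraries.

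Of 25 NF-kB and inflammatory genes, 15 lay above and 4 below both ASO libraries (median 0.25). The shares over all genes tested were 31.9% above, 32.6% below and 8.71% with an unadjusted edgeR p under 0.05. With edgeR 0 passed, 12 had an unadjusted p under 0.05, and 2 passed with DESeq2 (IL1A and CXCL8) and 1 with limma-voom (IL1A). CXCL8, a neutrophil chemokine, was at 48.3 CPM in siSREBF1, 16.1 with ASO-SREBF1-S1 and 26.1 with ASO-SREBF1-S4, with 7.37 to 11.0 in the controls, so all 3 targeting libraries exceeded the controls (edgeR adjusted p = 0.19). IL1A, an interleukin-1 cytokine, was at 7.23 CPM against 1.74 and 2.46, with 0.77 to 1.02 in the controls (edgeR adjusted p = 0.062). The list's median against the own control was 0.67 with siSREBF1, 0.30 with ASO-SREBF1-S1 and 0.50 with ASO-SREBF1-S4.

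Of 25 p53 targets, 0 lay above and 17 below both ASO libraries (median -0.27). Over all genes tested, 31.9% lay above both, 32.6% below both and 8.71% had an unadjusted edgeR p under 0.05. The list's median against the own control was 0.10 with siSREBF1, 0.30 with ASO-SREBF1-S1 and 0.37 with ASO-SREBF1-S4. With edgeR 0 passed, 10 had an unadjusted p under 0.05, all lower in siSREBF1, and 1, CDKN1A, passed with DESeq2 and 0 with limma-voom. FDXR, a mitochondrial reductase, was at 22.4 CPM in siSREBF1 and 21.5 to 24.15 in the controls, against 33.1 and 34.0 in the ASO libraries, which stood apart as a pair (edgeR adjusted p = 0.19). Of 27 genes of dedifferentiated melanoma and YAP output, 6 lay above and 11 below, and edgeR passed 0 (7 unadjusted), DESeq2 2 (CCN2 and NGFR) and limma-voom 0. THBS1, thrombospondin-1, was at 68.6 CPM in siSREBF1 and 44 to 69.9 in the controls, against 162.9 and 108.5 in the ASO libraries. NGFR, a neural crest receptor, was at 48.9 CPM, with 42.0 to 59.5 in the controls and 88.4 and 109 with the ASOs. For both genes the ASO libraries were the pair that stood apart, and neither difference passed (edgeR adjusted p = 0.33 and 0.17).

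Machinery used by the reagents themselves showed small differences. Of 14 genes of RNA interference, 0 passed with edgeR, 0 of them even unadjusted, 0 with DESeq2 and 0 with limma-voom, while 3 lay above and 2 below both ASO libraries, with a median of -0.01. AGO1, an Argonaute protein, was at 64.6 CPM in siSREBF1 against 73.3 and 68.2. Of 12 genes of RNase H and ASO binding the same counts were 0, and 3 lay above and 1 below (median 0.02), and RNASEH1 was at 42.5 CPM against 41.0 and 34.15. Of 24 melanocytic genes 4 lay above and 5 below, and over all genes tested 31.9% lay above and 32.6% below. PMEL, a melanosome fibril protein, was at 2047 CPM in siSREBF1, 2997 with ASO-SREBF1-S1 and 2223 with ASO-SREBF1-S4.

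**Figure D5:**
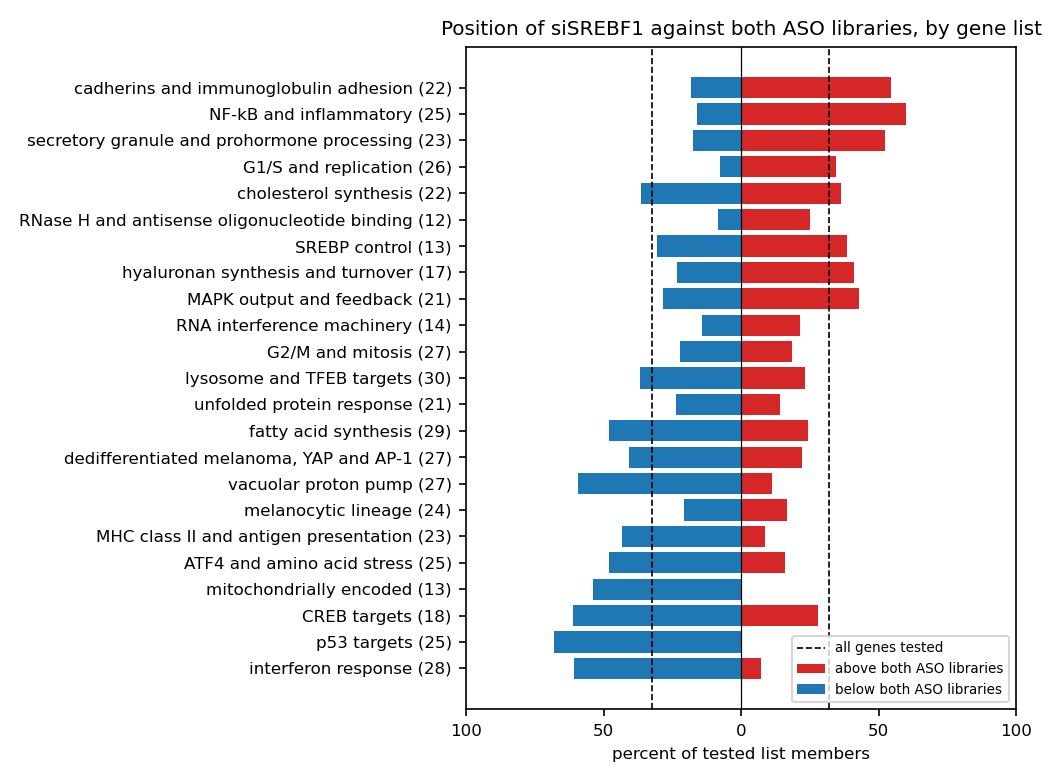
Percent of the tested members of each list with at least 12 tested genes (number in brackets) for which siSREBF1 lay above both ASO libraries (red, right) or below both (blue, left) by any amount, ordered by the list's median log2 difference, with dashed lines at the values for all genes tested (31.9% above, 32.6% below). Red bars pass the line most for NF-kB and inflammatory genes (15 of 25), and blue bars most for p53 targets (17 of 25), which have no red bar.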

How the data were processed

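RNA of 6 transfected HT-144 groups was sequenced as strand-specific, polyadenylated read pairs, per the labels' protocols. For alignment the authors name STAR (2.6.1a) with build GRCh38, and for read quality FastQC, in the submitters' processing notes. They deposited whole-number read counts per gene for 24 lane files. Which annotation served for counting is not given in the sources used here. The strand column that held most reads was used, since the opposite column held 6.47% to 7.79% of both. Genes took 80.65% to 81.82% of the read pairs, and the 4 summary lines per file were left out. Lanes, technical replicates per the series text, differed from each other by little more than sampling noise (chi-square per degree of freedom 1.01 to 1.04) and were summed to 1 library per group. A count of 3 was worth 0.0626 to 0.232 CPM, and all intervals cover counting error only where so named. Of 58735 identifiers, 58207 matched GENCODE 44, the source of gene coordinates.

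Genes were tested in edgeR 4.0.16 (R 4.3.3) after filterByExpr and TMM scaling, with the 2-sided quasi-likelihood F test and Benjamini-Hochberg adjustment at 0.05 over all genes. Its 3 classes (controls, ASO pair, siSREBF1) left 3 residual degrees of freedom. Ratios of single libraries used a prior count of 2 and have no p-value. Alternatives included DESeq2 1.42.0 and limma 3.58.1, other scaling, filters, strand, lanes and left-out libraries. The fits were tested on simulated data.

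Members and gene lists were chosen with earlier results of these data known. Named were SREBF1, SREBF2, the 4 marker genes, every gene past the threshold, the 15 highest and 15 lowest of the 2-fold rule, and up to 4 genes per list, those past the threshold first and then by distance from the nearer ASO library. Genes named in the cell type check and at the edge of the 2-fold rule came on top.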

Additional observations from a re-analysis of the deposited data

Results flagged for a closer look

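SCG2 and EDN3 moved in opposite directions with the 2 kinds of reagent, each by at least 0.5 on the log2 scale against its own negative control. For SCG2 the log2 ratio was 2.25 with the siRNA pool and -0.54 and -0.55 with the ASOs, a gap of 2.79. For EDN3 it was 1.00 against -0.86 and -0.56, a gap of 1.71. For SCG2 the counting intervals of the ASO ratios reached inside 0.5, at -0.81 to -0.27 with ASO-SREBF1-S1 and -0.90 to -0.21 with ASO-SREBF1-S4. For EDN3 the interval did so with ASO-SREBF1-S4 (-0.99 to -0.13, 70 counts) but not with ASO-SREBF1-S1 (-1.205 to -0.51, 167 counts). Mock held 5.10 CPM of EDN3, nearer to ASO-SREBF1-S4 (4.30) than ASO-Neg was (6.36). The difference of differences was tested with edgeR over all genes with 1 residual degree of freedom: it was 2.82 for SCG2 (unadjusted p = 7.0e-05) and 1.75 for EDN3 (unadjusted p = 0.0050), and neither passed after adjustment. Both ASO ratios share the ASO-Neg library.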

How the results depend on the processing

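The 24 genes past the test became 380 (218 higher, 162 lower) with no filter on low counts, 127 with the DESeq2 Wald test and 1 (SCG2) with only the 3 SREBF1-targeting libraries, and ran from 2 to 890 when 1 library was left out and from 31 to 42 when 1 lane was. The 8 list members past it became 46, 22 and 1 in the same order, and ran from 2 to 74 when 1 library was left out. With DESeq2's size factors (35 genes), limma-voom (28) and unstranded counts (31) the count stayed within 1.5 times. The cause was not tested, but a fit that lacks one of the SREBF1 ASO libraries takes its spread from the controls alone. All 24 genes were also past the test with DESeq2's size factors, with no filter, with the DESeq2 Wald test and without either ASO library. SCG2 passed in all 15 alternatives (2.67 to 2.90), ATP6V1D in 14 (-1.895 to -1.798), and EDN3 and HAS3 in 11 each. The 3-library fit gave adjusted p-values of 0.11 for ATP6V1D, 0.55 for EDN3 and 0.31 for HAS3. None of these genes changed direction.

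The 21 genes of the 2-fold rule became 247 with no CPM minimum and 8 when the whole counting interval had to lie beyond 2-fold. The own-control classes held 13 genes in place of 8 under limits of 0.8 and 0.4. The difference of differences called 1 gene, SCG2, with DESeq2 (54 unadjusted) in place of 0. No paired analysis was possible because the replicate numbers mark sequencing lanes that were summed to 1 library per group. Depth was lowest in Mock and siSREBF1, where a count of 3 is worth most. Every group was 1 library, siSREBF1 cannot be left out, and dose and reagent type differ together.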

Other observations

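Of 28 interferon-response genes tested, 2 lay above and 17 below both ASO libraries. Over all genes tested, 31.9% lay above both, 32.6% below both and 8.71% had an unadjusted edgeR p under 0.05. The interferon list's median log2 ratio to the own control was 0.05 with siSREBF1, 0.34 with ASO-SREBF1-S1 and -0.07 with ASO-SREBF1-S4. IFI6 was at 38.8 CPM in ASO-SREBF1-S1 and 13.8 to 20.4 in the 5 other libraries, and OAS2 at 6.48 CPM against 1.56 to 2.89. CHAC1, a glutathione-degrading ATF4 target, was at 7.68 CPM in ASO-SREBF1-S1 and 1.65 to 3.44 elsewhere. Of the interferon genes 0 passed edgeR's test between siSREBF1 and the ASO pair (5 unadjusted), 1 passed with DESeq2 (IFI6) and 0 with limma-voom, and the 2 ASOs were not tested against each other.

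Mitochondrially encoded genes lay below both ASO libraries in 7 of 13 cases and above both in 0. Over all genes tested, 32.6% lay below both and 31.9% above. The median log2 ratio of the mitochondrial genes to the own control was -0.21 with siSREBF1, -0.21 with ASO-SREBF1-S1 and 0.09 with ASO-SREBF1-S4. MT-CO2 was at 5224 CPM in siSREBF1, 5936 with ASO-SREBF1-S1 and 6895 with ASO-SREBF1-S4, and at 6494 to 6721 in the controls. Among 26 genes of the G1/S transition and replication, 9 lay above and 2 below both ASO libraries, and among 27 of G2 and mitosis 5 lay above and 6 below. Against the own control, the G1/S median was 0.00 with siSREBF1, 0.02 with ASO-SREBF1-S1 and -0.26 with ASO-SREBF1-S4. For G2 and mitosis the medians were -0.12, -0.08 and -0.29 in that order.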
